A study of Homo sapiens with 11 samples.

Results

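The 42 genes described here are 22 genes of the tricarboxylic acid cycle and its entry and exit reactions and 20 genes of fatty acid oxidation, out of 33080 genes in each deposited table. They were picked by symbol from a list of both pathways, and each of the 42 was present. These members, and the lists of other pathway genes given further below, were chosen with earlier results of these data known. Their shares beside those of all genes are therefore a description only. RNA was sequenced in bulk in 11 libraries from 769-P cells, an established line from a human renal carcinoma of the clear-cell type. In si1 (n = 3) and si2 (n = 4), cells were given the first or the second siRNA against AKR1A1, and in siSCR (n = 4) a control siRNA. All groups shared the parental line and transfection with RNAiMAX and Opti-MEM for 48 h, at an siRNA concentration labelled as 20 µM. The labels give the si1 and si2 libraries the genotype AKR1A1-/-, whereas the design text speaks of knockdown. Knockdown leaves some transcript in place and a population transfected for a short time is no stable line. The question of the comparisons is which transcripts of these pathways differ when AKR1A1 is lowered.

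The cycle takes up acetyl-CoA made by the pyruvate dehydrogenase complex, oxidizes it to carbon dioxide and hands the electrons to the respiratory chain. Fatty acid oxidation brings fatty acids into the mitochondrion on carnitine and shortens them in rounds of dehydrogenation, hydration, dehydrogenation and thiolysis, each of which yields acetyl-CoA for the cycle. Clear-cell renal carcinomas are known for stored lipid and for low use of both pathways compared with the kidney tubule.

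Promoter sequences of HADHA, HADHB and GOT1 are shown first, though limma called none of them in any comparison before alternative settings. Windows from RefSeq on GRCh38.p14, reaching from 250 bases before to 50 bases after a gene's start, were available for 21 of 22 cycle genes and 15 of 20 oxidation genes. OGDH, ACAA1, ACSM3, DECR1, EHHADH and ETFDH had no entry. HADHA and HADHB encode the alpha and beta subunits of the mitochondrial trifunctional protein. They are shown because HADHA was above siSCR in every si1 library and HADHB in every si2 library. Of all genes tested, 10.8% lay so with si1 and 7.09% with si2. They are transcribed away from each other from starts at 26244632 (minus strand) and 26244939 (plus strand) of chromosome 2, with 306 bases between them. Their windows share the 194 bases of chr2:26244689-26244882, given on the plus strand.
HADHA and HADHB shared stretch: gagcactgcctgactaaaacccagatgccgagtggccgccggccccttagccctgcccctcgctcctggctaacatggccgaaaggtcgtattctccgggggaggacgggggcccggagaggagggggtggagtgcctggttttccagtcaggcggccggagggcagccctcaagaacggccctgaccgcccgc

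GOT1, the cytosolic aspartate aminotransferase, is shown because it was above siSCR in every library of both siRNAs. The share of all genes above siSCR with both siRNAs was not counted. The 250 bases before its start are chr10:99430625-99430874 on the minus strand, with CCAAT boxes in capitals on either strand (CCAAT or ATTGG).
GOT1 upstream: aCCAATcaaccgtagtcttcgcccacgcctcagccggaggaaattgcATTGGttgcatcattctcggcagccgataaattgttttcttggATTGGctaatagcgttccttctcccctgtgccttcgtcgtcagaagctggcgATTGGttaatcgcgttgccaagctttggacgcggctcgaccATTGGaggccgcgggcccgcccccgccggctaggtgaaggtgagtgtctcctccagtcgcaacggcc

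The GOT1 window held 5 CCAAT boxes, a number reached by 126 of all 35116 windows (0.359%). At least 1 box was in 15 of 26 cycle windows (57.7%) and 3 of 19 oxidation windows (15.8%), against 34.6% of all windows. The ETS letters CCGGAAG were in 4 cycle windows (15.4%) and 4 oxidation windows (21.1%), against 10.3% of all. The consensus of NRF1, a factor of many mitochondrial genes, was in 1 cycle window (3.85%, IDH3G) and 0 oxidation windows, against 1.48% of all. The ERR letters TNAAGGTCA were in 0 member windows, against 0.951% of all. Both strands were searched for each motif, and the shared stretch of HADHA and HADHB held none of the motifs. These are matches of letters only.

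Reads on genes numbered 2108546 to 3880155 in si1, 2958944 to 5939514 in si2 and 2271348 to 3836109 in siSCR. The values below are RLE-normalized counts (counts divided by the size factor of the library), unless given as log2. AKR1A1, the targeted NADPH-dependent aldehyde reductase, had 81.7, 23.6 and 45.1 in si1 and 56.6, 32.1, 48.3 and 46.1 in si2, against 390.4, 256, 200.1 and 242 in siSCR. It fell by 2.54 on the log2 scale in si1 (SE 0.42; limma adjusted p = 0.0357; exact permutation p = 0.0571, the smallest that 35 splits allow). In si2 it fell by 2.53 (SE 0.24; limma adjusted p = 0.00218; exact permutation p = 0.0286, the smallest that 70 splits allow). With the replicate number as a block, limma's adjusted p for si1 was 0.154, and leaving out any single library other than siSCR 1 gave 0.0659 to 0.126. The mitochondrially encoded genes held 12.1% of the reads of siSCR 1, against 3.46% to 4.46% in the other siSCR libraries. The share was 6.57% to 11.1% in si1 and 4.59% to 5.12% in si2. Of the 22 cycle genes, siSCR 1 lay below all other siSCR libraries for 12 and above them for 3. Of the 20 oxidation genes it lay below for 5 and above for 9, so results against siSCR are also given without it where a call changes. Of 10 markers of renal carcinoma epithelium, 8 averaged at least 10, with VIM, CDH2 and PAX8 highest, while CA9 and NDUFA4L2, markers of clear-cell carcinoma, were at 0 and at a mean of 0.0798. The summed marker level was 11498 to 15259 in si1, 13788 to 15107 in si2 and 14381 to 15252 in siSCR. All 4 endothelial markers were at 0, as were CD3E, COL1A2 and LUM. The summed level was 33.1 to 86.1 in si1, 35.7 to 88.4 in si2 and 57.0 to 112 in siSCR for 5 leukocyte markers, nearly all of it CD68. For 5 fibroblast markers it was 12.3 to 30.5 in si1, 38.9 to 61.0 in si2 and 25.5 to 52.3 in siSCR, with COL1A1 the highest of them in every library. Their part in the results was not tested. Nothing in the labels shows that replicates came from different cultures, and p-values therefore rest on a spread that may be technical. In bulk RNA, fewer cells with a transcript and less of it per cell cannot be told apart.

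Per kilobase of exon, the cycle was led by MDH2, IDH2 and GOT2. MDH2, the mitochondrial malate dehydrogenase, had 281 ± 19.1 normalized counts per kilobase in si1 (SD, n = 3) and 272 ± 42.7 in si2 (n = 4), against 253 ± 20.6 in siSCR (n = 4). IDH2, the mitochondrial NADP-dependent isocitrate dehydrogenase, had 271 ± 19.0 per kilobase in si1 and 221 ± 47.9 in si2, against 186 ± 22.2 in siSCR. GOT2, the mitochondrial aspartate aminotransferase, had 216 ± 5.46 in si1 and 196 ± 19.4 in si2, against 226 ± 27.6 in siSCR. The cycle genes thus spanned a wide range of levels, down to PC. Pyruvate carboxylase (PC), which makes oxaloacetate from pyruvate, had normalized counts of 8.78, 0 and 18 in si1 and of 6.19, 8.03, 10.5 and 6.74 in si2, against 11.8, 3.20, 3.92 and 12.2 in siSCR. PC reached 10 normalized counts in too few libraries of the comparisons of si2 and was not tested there.

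In fatty acid oxidation the highest levels were those of ECHS1, HADHA and ECI1. ECHS1, the short-chain enoyl-CoA hydratase, had 678 ± 121 normalized counts per kilobase in si1 and 601 ± 90.1 in si2, against 664 ± 119.8 in siSCR. HADHA had 377 ± 27.2 per kilobase in si1 and 265 ± 33.7 in si2, against 238 ± 43.6 in siSCR. ECI1, an enoyl-CoA isomerase for unsaturated acids, had 165 ± 17.6 in si1 and 142 ± 8.15 in si2, against 148 ± 12.9 in siSCR. The trifunctional protein's HADHA was far above its partner HADHB, at 37.3 ± 7.59 per kilobase in si1 and 52.6 ± 6.39 in si2, against 38.1 ± 3.22 in siSCR. At the other end was ACAA2, the mitochondrial thiolase that ends a round. Its normalized counts were 5.27, 0 and 7.51 in si1 and 22.1, 12, 6.30 and 8.81 in si2, against 5.04, 24.6, 22.2 and 17.3 in siSCR. ACAA2 was under the minimum, and not tested, in si2 against si1.

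**Figure D1:**
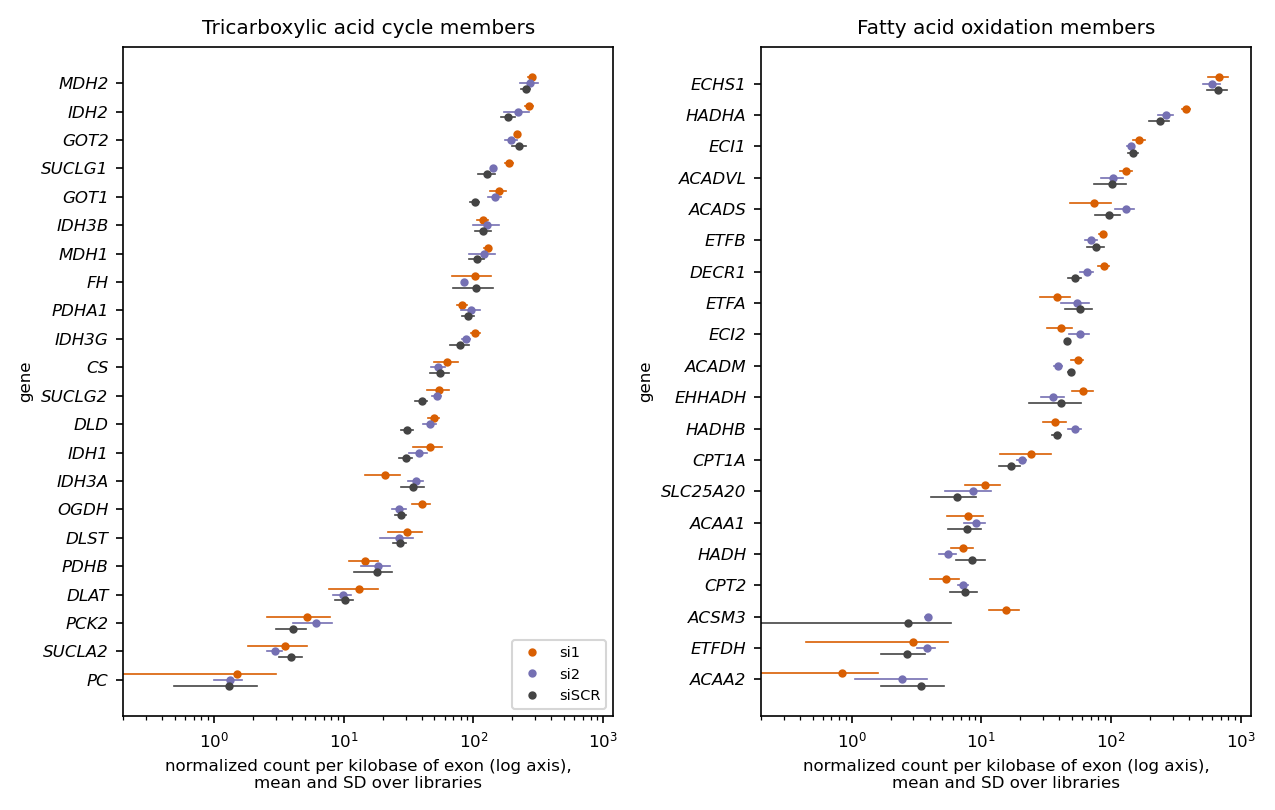
Levels of the 22 cycle genes (left) and 20 oxidation genes (right) in normalized counts per kilobase of exon on a log axis, as mean and SD over the libraries of si1 (n = 3), si2 (n = 4) and siSCR (n = 4); lines are cut at the left edge where the SD reaches it. MDH2, IDH2 and GOT2 lead the cycle and ECHS1, HADHA and ECI1 lead oxidation, while PC and ACAA2 lie lowest.

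In si1 against siSCR, no cycle gene was called by limma at an adjusted p under 0.05, and more cycle genes had a positive than a negative log2 fold change. Of 22 tested, 14 had a positive and 8 a negative log2 fold change, with a median of 0.22, against -0.03 over all 10517 genes tested. With 1 library left out, this median lay between 0.14 (without si1 2) and 0.34 (without si1 1). All genes tested had 181 calls (1.72%), 0.789% higher and 0.932% lower. In 7 cycle genes (31.8%) every si1 library lay above every siSCR library, against 10.8% of all genes tested; these were IDH1, IDH2, OGDH, DLD, SUCLG1, MDH1 and GOT1. No cycle gene lay without overlap below siSCR, against 10.9% of all genes. At an unadjusted p under 0.05, 6 were higher (11.5% of all genes) and IDH3A alone was lower (12.4% of all genes). Other tools called 2 cycle genes, DLD and GOT1, both with limma-trend and with voom on the recovered reads. Over all 10517 genes, limma-trend called 342 higher and 370 lower, and voom 329 higher and 253 lower.

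The smallest p in the cycle was that of DLD, the dihydrolipoamide dehydrogenase that the pyruvate, 2-oxoglutarate and branched-chain dehydrogenase complexes share. DLD had normalized counts of 245, 294 and 251 in si1, against 177, 157, 178 and 142 in siSCR. Its log2 fold change came to 0.69 (SE 0.18; limma adjusted p = 0.0819), and it lies on chromosome 7 from 107890970 to 107931730 (GENCODE 29, GRCh38). GOT1, which moves reducing equivalents in the malate-aspartate shuttle together with MDH1 and GOT2, had 537, 597 and 451 in si1, against 332, 337, 389.8 and 328 in siSCR. The groups did not overlap, with a log2 fold change of 0.60 (SE 0.18; limma adjusted p = 0.111). GOT1 shares 19.3% of its exon bases with AL391684.1 on the other strand, which had 0 to 4.27 normalized counts in any library.

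IDH2 had normalized counts of 775, 704 and 808 in si1, against 552, 509, 443 and 589 in siSCR, with a log2 fold change of 0.55 (SE 0.18; limma adjusted p = 0.127). SUCLG1 encodes the alpha subunit common to both succinyl-CoA ligases, and it had 827, 862 and 738 in si1, against 431, 621, 569 and 568 in siSCR. Its log2 fold change came to 0.57 (SE 0.19; limma adjusted p = 0.134), and siSCR 1 was the lowest control library. OGDH, the first subunit of the 2-oxoglutarate dehydrogenase complex, and IDH1, the cytosolic isocitrate dehydrogenase, had log2 fold changes of 0.53 and 0.57. Log2 fold changes of subunits differed in sign within the NAD-dependent isocitrate dehydrogenase and the pyruvate dehydrogenase complex. Those of the 2-oxoglutarate dehydrogenase complex were all positive. IDH3A, the catalytic subunit of the NAD-dependent isocitrate dehydrogenase, had a log2 fold change of -0.74, while the partner subunits IDH3B and IDH3G had -0.01 and 0.40. In the 2-oxoglutarate dehydrogenase complex, the log2 fold change of DLST, the succinyltransferase, was 0.14 beside 0.53 for OGDH and 0.69 for DLD. In the pyruvate dehydrogenase complex, PDHA1 and PDHB, which form its first enzyme, had -0.15 and -0.25, and the acetyltransferase DLAT had 0.29. DLD, which this complex also holds, had 0.69. PDHX, which ties DLD into the complex and is not among the 42, had 1.19 (limma adjusted p = 0.0740). The limma intervals of IDH3B, IDH3G, DLST, PDHA1, PDHB and DLAT each spanned both signs, so the signs of these genes are not settled.

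The remaining cycle genes lay closer to siSCR or had wide errors. CS, citrate synthase, had a log2 fold change of 0.18 and FH, fumarase, of -0.02. MDH1, the cytosolic malate dehydrogenase, had 0.28, with no overlap between the groups, and MDH2 had 0.15. SUCLG2 and SUCLA2, the GTP- and ATP-forming beta subunits of succinyl-CoA ligase, had 0.43 and -0.28. PCK2, which makes phosphoenolpyruvate in the mitochondrion, had 0.27, GOT2 had -0.06, and PC, with 1 si1 library at 0, had -0.43 with a 95% interval of -2.67 to 1.81. Without siSCR 1, DLD was called in si1 with 0.73 (limma adjusted p = 0.0440), beside 7.01% of all genes called higher and 6.52% lower. With the replicate number as a block, limma called 0 genes in all and 0 members.

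**Figure D2:**
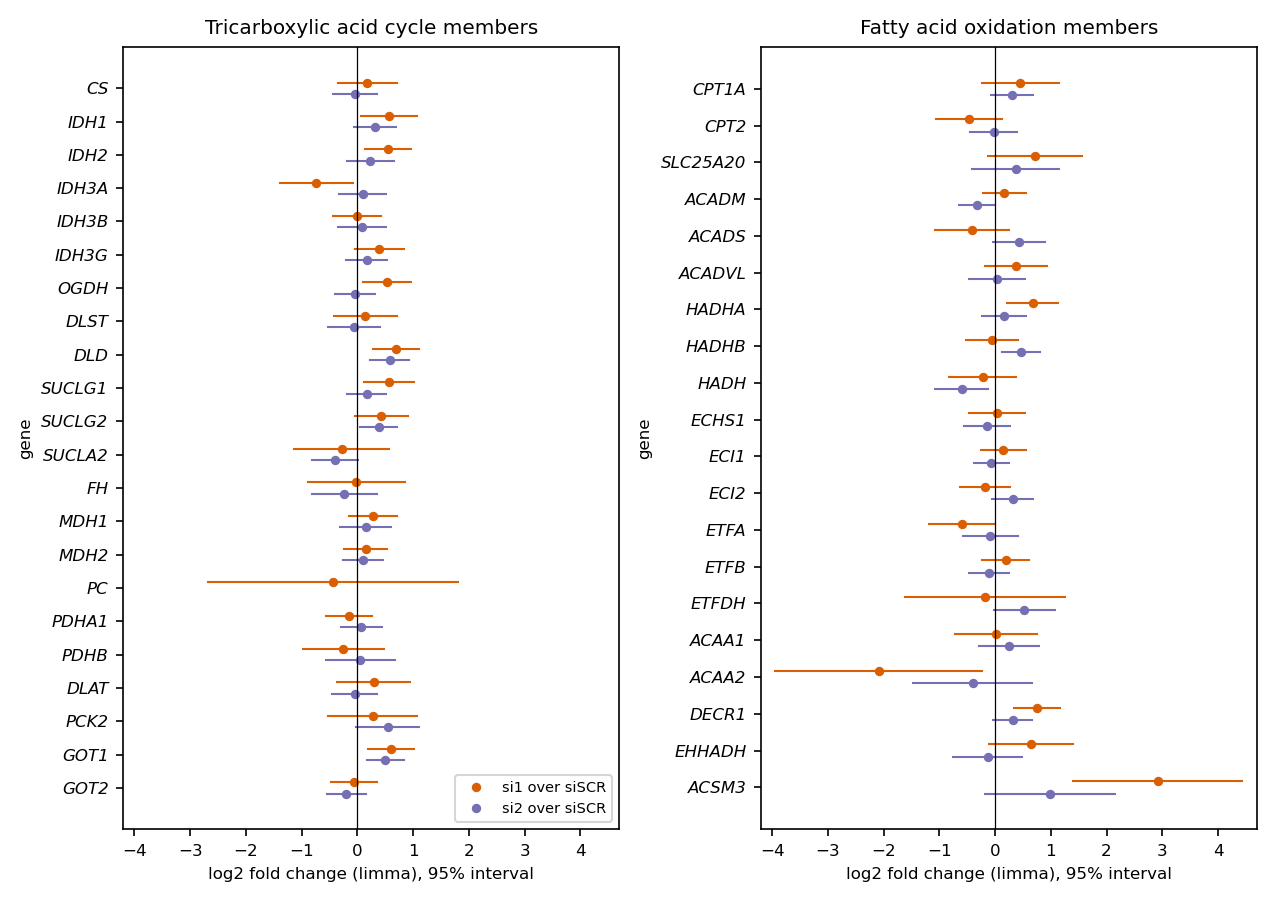
Log2 fold changes of si1 (orange, upper point of each gene) and si2 (violet, lower point) over siSCR with 95% intervals from limma, for the cycle genes (left) and oxidation genes (right); PC has no si2 point. ACSM3 has the largest fold change with si1, 2.92, and most cycle points with si1 lie right of 0.

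In si1 against siSCR, fatty acid oxidation gave 0 limma calls among 20 genes tested, with 12 positive and 8 negative log2 fold changes and a median of 0.09, against -0.03 over all genes. Leaving out 1 library moved this median to between 0.0032 (without si1 1, with 10 positive and 10 negative) and 0.22 (without si1 2). Every si1 library lay above every siSCR library for HADHA, DECR1 and ACSM3 (15% of the genes, against 10.8% of all genes), and no gene lay below without overlap, against 10.9%. At an unadjusted p under 0.05, 3 were higher (11.5% of all genes) and 2 lower (12.4%), so the counts of higher genes were near the shares over all genes. Limma-trend and voom each called 3, ACSM3, DECR1 and HADHA, all higher, beside 342 and 329 of all 10517 genes called higher.

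ACSM3, a mitochondrial medium-chain acyl-CoA synthetase that activates acids such as butyrate, had the largest log2 fold change of all members. Its normalized counts were 158, 99.9 and 105 in si1, against 57.1, 6.41, 9.16 and 13.2 in siSCR. The lowest si1 library was above siSCR 1, the highest control. On the log2 scale the fold change was 2.92 (SE 0.65; limma adjusted p = 0.0624), and without siSCR 1 it was 3.55 (limma adjusted p = 0.00696). With the mitochondrial share of reads as a covariate it was 2.25 (limma adjusted p = 0.0338). The fit without siSCR 1 called 7.01% of all genes higher and 6.52% lower. ACSM3 lies on chromosome 16 from 20610243 to 20797581, and 11.1% of its exon bases overlap ERI2 on the other strand, which had 9.66 to 40.2 normalized counts over the 11 libraries.

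DECR1 encodes the mitochondrial dienoyl-CoA reductase, an auxiliary enzyme for polyunsaturated acids. It had normalized counts of 276, 337 and 316 in si1, against 165, 187, 212 and 171 in siSCR, and the groups did not overlap. Its log2 fold change reached 0.75 (SE 0.18; limma adjusted p = 0.0706; 0.0475 without siSCR 1). HADHA, whose product carries the long-chain hydratase and dehydrogenase activities, had 1625, 1782 and 1548 in si1, against 1310.5, 1021, 855 and 992 in siSCR. Its log2 fold change came to 0.67 (SE 0.20; limma adjusted p = 0.109), and without siSCR 1, the highest control, 0.79 (limma adjusted p = 0.0308). HADHB, the thiolase subunit of the same complex, had a log2 fold change of -0.05. The fit without siSCR 1 called 3 of 20 oxidation genes higher and 0 lower, against 7.01% and 6.52% of all genes. ACAA2 had the largest negative log2 fold change, -2.09 (SE 0.80; limma adjusted p = 0.172), from counts too low for a narrow interval (-3.95 to -0.23).

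Among the carnitine enzymes, CPT1A, the entry step at the outer membrane, had a log2 fold change of 0.46, the carrier SLC25A20 of 0.72 and CPT2, at the inner membrane, of -0.47. The acyl-CoA dehydrogenases for very long, medium and short chains, ACADVL, ACADM and ACADS, had 0.38, 0.17 and -0.41. Electron transfer flavoprotein passes their electrons to the respiratory chain. Its subunits ETFA and ETFB had -0.59 and 0.19, and its dehydrogenase ETFDH had -0.18. For the hydratase ECHS1 the value was 0.03, for the short-chain hydroxyacyl-CoA dehydrogenase HADH -0.22, and for the isomerases ECI1 and ECI2 0.15 and -0.18. The peroxisomal genes EHHADH, a bifunctional enzyme, and ACAA1, a thiolase, had 0.65 and 0.02. None of these passed the limma test.

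**Figure D3:**
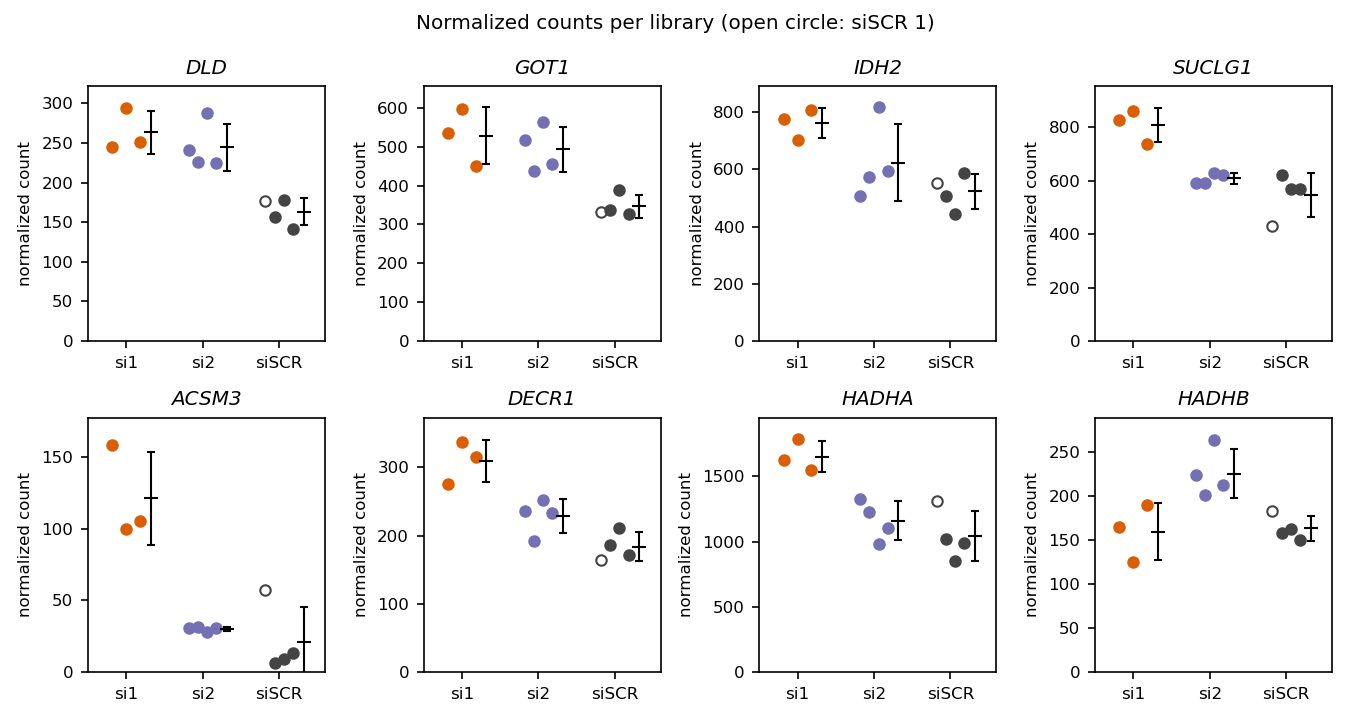
Normalized counts of 8 members in each library of si1, si2 and siSCR, with mean and SD at the right of each group (SD lines are cut at 0) and siSCR 1 as an open circle. DLD and GOT1 lie above siSCR in all si1 and si2 libraries, ACSM3 lies highest in si1, HADHA is high in si1 and HADHB in si2.

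With si2 the cycle again gave 0 limma calls, among 21 genes tested. Of these 14 had a positive and 7 a negative log2 fold change, with a median of 0.09 (0.05 without siSCR 1 to 0.16 without si2 2), against -0.0080 over all genes. Over all 10249 genes tested, 3.12% were called, 1.93% higher and 1.19% lower. Every si2 library lay above every siSCR library for 3 cycle genes (14.3%), DLD, SUCLG2 and GOT1, against 7.09% of all genes, and 0 lay below, against 5.50%. At an unadjusted p under 0.05, 3 were higher (10.4% of all genes) and 0 lower (9.22%). Limma-trend and voom each called 1 cycle gene, DLD. Over all 10249 genes, limma-trend called 306 higher and 176 lower, and voom 288 higher and 175 lower. The siRNA comparisons share the siSCR libraries, so their values stand side by side here and are not counted as separate evidence.

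DLD had normalized counts of 241, 226, 288 and 224 in si2, against 177, 157, 178 and 142 in siSCR. Its log2 fold change came to 0.58 (SE 0.16; limma adjusted p = 0.0784), and without siSCR 1 it was 0.62 (limma adjusted p = 0.0317). GOT1 had 517, 438, 563 and 455 in si2, against 332, 337, 389.8 and 328 in siSCR, a log2 fold change of 0.50 (SE 0.15; limma adjusted p = 0.107). Both genes thus stood above the controls in all 7 libraries with an siRNA against AKR1A1, without a call in either comparison. The share of all genes that did so was not counted, and the comparisons share their controls. In the single comparisons, 10.8% of all genes tested (si1) and 7.09% (si2) lay above siSCR without overlap. The beta subunits of succinyl-CoA ligase had fold changes of opposite sign. SUCLG2 had 147, 166, 158 and 174 in si2, against 105, 135, 124 and 130.4 in siSCR, with a log2 fold change of 0.38 (SE 0.15; limma adjusted p = 0.194). SUCLA2 had 25.6, 21.7, 28.4 and 30.1 in si2, against 27.7, 44.9, 35.3 and 33.6 in siSCR, with -0.40 (SE 0.19; limma adjusted p = 0.276). The SUCLA2 groups overlapped only through siSCR 1. FH had a log2 fold change of -0.24 and was called lower only without siSCR 1, at -0.52 (limma adjusted p = 0.0415), beside 7.74% of all genes called higher and 6.68% lower. The other 16 cycle genes lay between -0.20 (GOT2) and 0.54 (PCK2), among them OGDH with -0.04 and IDH3A with 0.09.

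Fatty acid oxidation in si2 gave 0 limma calls among 20 genes tested, 11 with a positive and 9 with a negative log2 fold change and a median of 0.10 (0.06 without siSCR 3 to 0.24 without siSCR 1). HADHB alone lay without overlap above siSCR (5%, against 7.09% of all genes), and ACADM alone below (5%, against 5.50%). At an unadjusted p under 0.05, 1 was higher (10.4% of all genes) and 2 lower (9.22%), and limma-trend and voom called 0. HADHB had normalized counts of 224, 201, 264 and 213 in si2, against 182, 158, 162 and 149.7 in siSCR. Its log2 fold change reached 0.46 (SE 0.15; limma adjusted p = 0.137; 0.0483 without siSCR 1). For HADHA it was 0.16, and its groups overlapped. The fit without siSCR 1 called 2 of 20 oxidation genes higher and 1 lower, against 7.74% and 6.68% of all genes.

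ACADM, the medium-chain acyl-CoA dehydrogenase, had 166, 197, 196 and 189.7 in si2, against 240.1, 232, 219.8 and 249.5 in siSCR. These values are apart, but the log2 fold change of -0.33 (SE 0.14) had a limma adjusted p of 0.236. HADH had 69.9, 77.0, 67.2 and 53.4 in si2, against 76.4, 131, 85.0 and 120.2 in siSCR. Only siSCR 1 reached the si2 range, with a log2 fold change of -0.60 (SE 0.21; limma adjusted p = 0.163; 0.0416 without siSCR 1). ETFDH had 20.3, 16.9, 16.8 and 14.0 in si2, against 14.3, 7.48, 17 and 9.17 in siSCR, with a log2 fold change of 0.53 (SE 0.25; limma adjusted p = 0.280). ETFDH shares 10.9% of its exon bases with PPID on the other strand, which is far more abundant at 127 to 202 over the 11 libraries. ACSM3 had 31.0, 31.3, 28.4 and 30.6 in si2, against 57.1, 6.41, 9.16 and 13.2 in siSCR. All si2 libraries were thus above siSCR 2 to 4 and below siSCR 1. The log2 fold change of ACSM3 was 0.99 (limma adjusted p = 0.340), and without siSCR 1 it was 1.61 (limma adjusted p = 0.00311). These calls of HADH and ACSM3 without siSCR 1 stand beside 7.74% of all genes called higher and 6.68% lower. The other 14 oxidation genes lay between -0.40 (ACAA2) and 0.43 (ACADS).

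**Figure D4:**
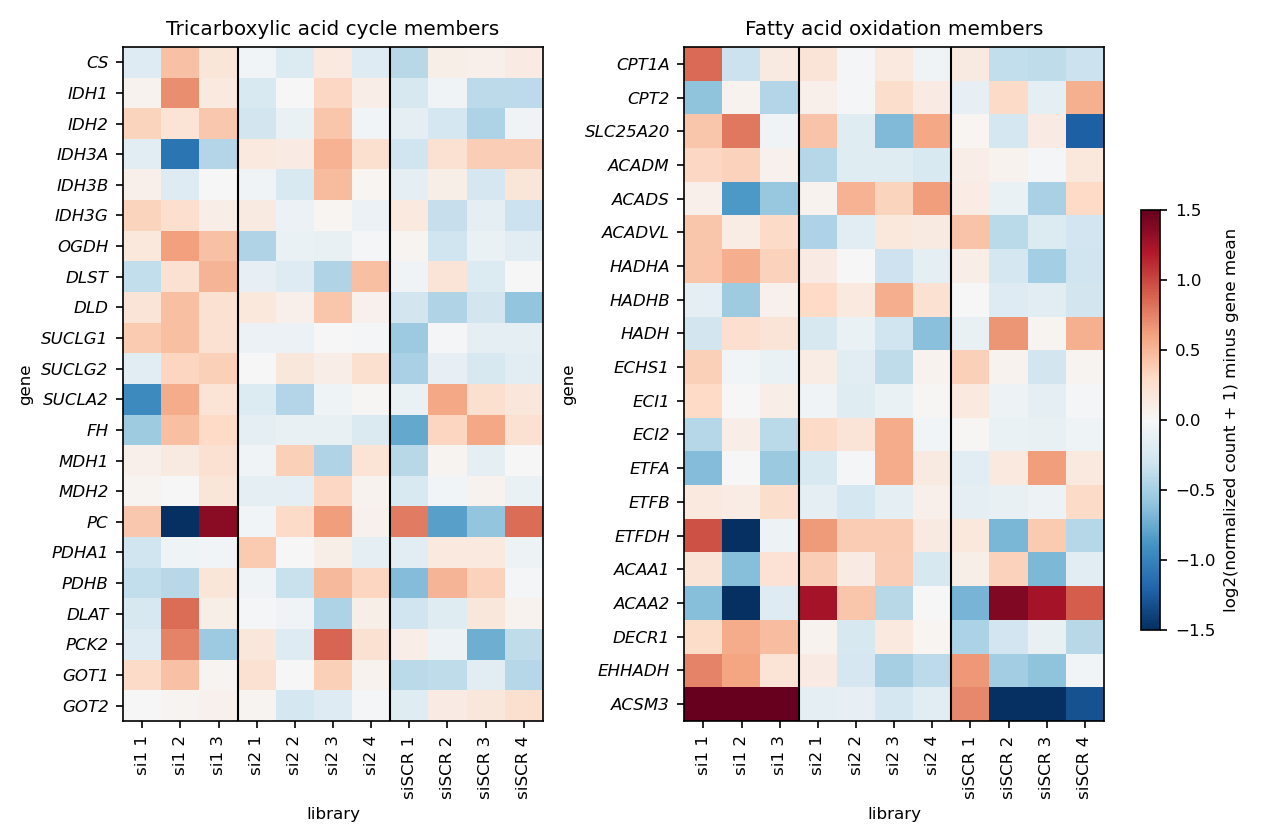
Log2(normalized count + 1) of each member in the 11 libraries, minus the mean of the gene, for the cycle (left) and oxidation (right); columns are si1, si2 and siSCR libraries and colors are limited to -1.5 and 1.5. DLD and GOT1 are above the gene mean in all si1 libraries and below it in all siSCR libraries, with GOT1 close to white in si1 3. ACSM3 is dark red in si1 and blue in siSCR 2 to 4 but red in siSCR 1.

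The direct comparison of si2 with si1 asks whether these pathways differ between the siRNAs. AKR1A1 differed between them by 0.01 on the log2 scale (95% interval -0.89 to 0.92; limma adjusted p = 0.988; exact permutation p = 0.971). With the mitochondrial share of reads in the fit, this difference was 1.27 (limma adjusted p = 0.137). In the cycle, limma called 0 of 21 genes, 5 with a positive and 16 with a negative log2 difference and a median of -0.13 (-0.18 without si2 4 to -0.05 without si1 2), against 0.03 over all genes. Over all 10448 genes tested, 6.74% were called, 3.71% higher and 3.02% lower in si2. IDH3A lay without overlap above si1 (13.4% of all genes), and OGDH and SUCLG1 below (11.6%). At an unadjusted p under 0.05, 1 was higher (13.5% of all genes) and 2 lower (11.9%), and limma-trend and voom each called 1, IDH3A. Over all 10448 genes, limma-trend called 627 higher and 437 lower, and voom 644 higher and 528 lower.

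IDH3A had normalized counts of 229, 225, 296 and 244 in si2, against 183, 95.7 and 152 in si1, a log2 difference of 0.83 (SE 0.25; limma adjusted p = 0.0850). Of its exon bases 38.2% overlap ACSBG1 on the other strand, which had 0 to 3.01. OGDH had 114, 146, 145 and 155 in si2, against 175, 240.1 and 213 in si1, with a log2 difference of -0.57 (SE 0.20; limma adjusted p = 0.116). SUCLG1 had 591, 592, 630.1 and 621 in si2, against 827, 862 and 738 in si1, with -0.41 (SE 0.16; limma adjusted p = 0.157). IDH2 overlapped between the siRNAs through si2 3, with 507, 574, 817 and 593 in si2, against 775, 704 and 808 in si1. Its log2 difference was -0.31 (SE 0.21; limma adjusted p = 0.380). For the genes that were above siSCR with both siRNAs, the log2 difference was -0.11 for DLD (95% interval -0.52 to 0.30) and -0.10 for GOT1 (95% interval -0.52 to 0.33).

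In fatty acid oxidation, ACSM3 was lower in si2 than in si1, the 1 call among 19 genes tested (3.02% of all genes were called lower). ACSM3 had 31.0, 31.3, 28.4 and 30.6 in si2, against 158, 99.9 and 105 in si1. The log2 difference was -1.93 (SE 0.21; limma adjusted p = 0.00541), and the call held with any single library left out (limma adjusted p = 0.00551 to 0.0272). It was lost with all 11 libraries in one fit (limma adjusted p = 0.0543), with the replicate block (0.0913) and without replicate 1 of every group (0.0580). It was also lost when the fit held the mitochondrial share, where the difference was -1.38 (limma adjusted p = 0.0525).

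Of the 19 oxidation genes, 7 had a positive and 12 a negative log2 difference, with a median of -0.22 (-0.25 without si1 2 to -0.08 without si1 1). HADHB lay without overlap above si1, against 13.4% of all genes, and 6 genes (31.6%, against 11.6% of all genes) lay below: ACADM, HADHA, ETFB, DECR1, EHHADH and ACSM3. EHHADH had 217, 166, 141 and 151 in si2, against 333, 301 and 229.9 in si1, with a log2 difference of -0.77 (SE 0.22; limma adjusted p = 0.0773). In siSCR it had 311 in siSCR 1 and 131 to 194 in the others. ACADS, the short-chain acyl-CoA dehydrogenase, had 268, 373, 328 and 401 in si2, against 272, 142 and 174 in si1. Only si1 1 reached the si2 range, and the log2 difference was 0.84 (SE 0.26; limma adjusted p = 0.0949). ACADM had 166, 197, 196 and 189.7 in si2, against 277, 284 and 233 in si1, with -0.49 (SE 0.17; limma adjusted p = 0.120). The dehydrogenases for medium and short chains thus had differences of opposite sign. The difference was -0.51 for HADHA (limma adjusted p = 0.121) and 0.51 for HADHB (limma adjusted p = 0.168).

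Ratios of partner transcripts within a library do not depend on its size factor. They are given as a description, since the pairs were chosen after their values were seen. ETFA over ETFB, IDH2 over IDH1 and PDHX over PDHB were examined too, and overlapped siSCR with both siRNAs. How often the ratios of other gene pairs lie without overlap was not counted. HADHA over HADHB was 9.89, 14.3 and 8.17 in si1 and 5.92, 6.13, 3.74 and 5.20 in si2, against 7.19, 6.46, 5.27 and 6.63 in siSCR. Every si1 ratio was above every other library, and the si2 ratios overlapped siSCR. GOT1 over GOT2, the cytosolic over the mitochondrial aspartate aminotransferase, was 0.680, 0.730 and 0.543 in si1 and 0.630, 0.662, 0.810 and 0.585 in si2, against 0.473, 0.388, 0.436 and 0.349 in siSCR. SUCLG2 over SUCLA2, the GTP-forming over the ATP-forming subunit, was 8.76, 4.16 and 5.48 in si1 and 5.72, 7.67, 5.56 and 5.79 in si2, against 3.79, 3.00, 3.52 and 3.88 in siSCR. Both ratios were above siSCR in each of the 7 libraries with an siRNA against AKR1A1, with siSCR 1 the highest control for GOT1 over GOT2 and between the others for SUCLG2 over SUCLA2. IDH3A over IDH3B was 0.556, 0.354 and 0.486 in si1 and 0.764, 0.848, 0.683 and 0.768 in si2, against 0.594, 0.729, 1.02 and 0.757 in siSCR.

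**Figure D5:**
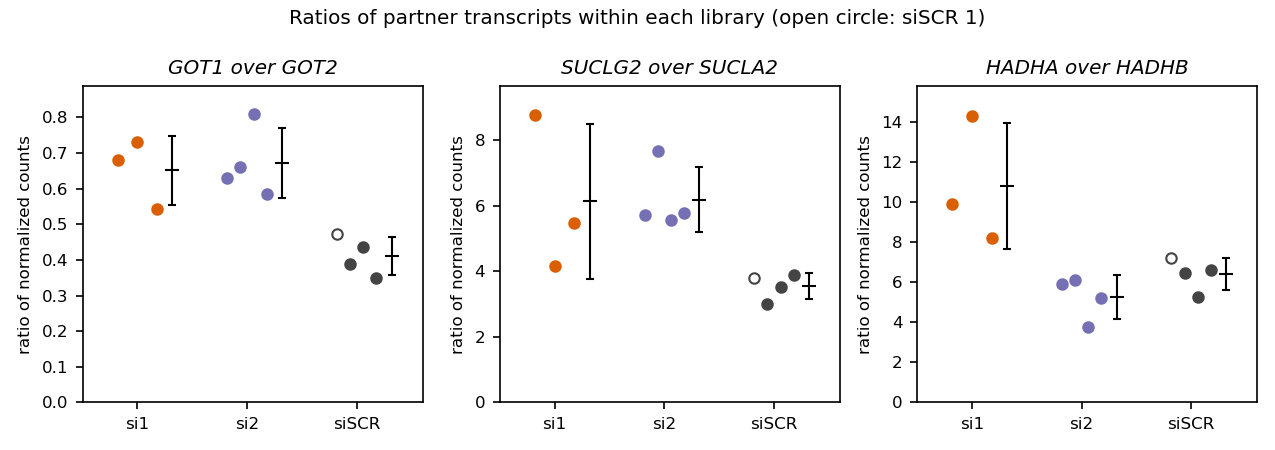
Ratios of normalized counts of partner transcripts in each library of si1, si2 and siSCR, with mean and SD at the right of each group and siSCR 1 as an open circle. GOT1 over GOT2 and SUCLG2 over SUCLA2 lie above siSCR in all si1 and si2 libraries, and HADHA over HADHB does so in si1.

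The authors' deposited table for si1 called 4 of 22 cycle genes higher and 0 lower: DLD, GOT1, SUCLG1 and IDH2. Their log2 fold changes in the authors' deposited table were 0.65, 0.59, 0.54 and 0.52. In fatty acid oxidation the authors' deposited table for si1 called 3 of 20 genes higher and 0 lower: ACSM3 (1.74), DECR1 (0.72) and HADHA (0.63). For si2 the authors' deposited table called 2 of 22 cycle genes higher, DLD (0.54) and GOT1 (0.48), and 0 of 20 oxidation genes. Over all 33080 genes, of which 17626 had a read in any library, the authors' deposited tables called 485 higher and 565 lower in si1. In si2 they called 373 higher and 244 lower.

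Other genes of the cycle and its supply were 35, of which 30 were tested in each comparison. None was called with si1 (1.72% of all genes), where at an unadjusted p under 0.05 there were 8 higher (11.5% of all genes) and 3 lower (12.4%). ACLY, which splits exported citrate into cytosolic acetyl-CoA, had normalized counts of 1335, 1841 and 1626 in si1, against 905, 926, 929 and 892 in siSCR (log2 fold change 0.80; limma adjusted p = 0.0614). SLC25A13, the aspartate-glutamate carrier of the malate-aspartate shuttle, had 124, 94.4 and 113 in si1, against 159, 248, 249.8 and 222 in siSCR (-0.97; limma adjusted p = 0.0653). Without siSCR 1, ACLY was called higher (limma adjusted p = 0.0379) and SLC25A13 lower, at -1.12 (limma adjusted p = 0.0162). PDHX, SLC25A1, GLUD1 and OGDHL, named after their values were seen, were also called higher without it (limma adjusted p = 0.0210 to 0.0401). Of all genes, 7.01% were called higher and 6.52% lower in that fit.

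With si2, 2 of these 30 rose and 0 fell, against 1.93% and 1.19% of all genes. PDHX, which ties dihydrolipoamide dehydrogenase into the pyruvate dehydrogenase complex, had 138, 128, 83.0 and 108 in si2, against 52.9, 37.4, 32.7 and 44.8 in siSCR. It rose by 1.42 on the log2 scale (SE 0.21; limma adjusted p = 0.0102) and stayed called under all 19 alternatives. ACLY had 1428, 1420.5, 1982 and 1599.6 in si2, and rose against siSCR by 0.80 (SE 0.16; limma adjusted p = 0.0270). The ACLY call was lost when any single library other than siSCR 1 was left out (limma adjusted p = 0.0549 to 0.0882). The replicate block ended it as well. Without siSCR 1, PDP2 was also called higher in si2 (limma adjusted p = 0.00641), as were ME1 (0.0298) and GLUD1 (0.0381), named after their values were seen. Of all genes, 7.74% were called higher and 6.68% lower in that fit. In si2 against si1, SLC25A13 had 285, 253, 287 and 253 in si2, against 124, 94.4 and 113 in si1, and was higher by 1.29 (SE 0.18; limma adjusted p = 0.00959; 0.0738 without replicate 1 of every group). PDP2, a phosphatase that activates pyruvate dehydrogenase, had 89.3, 79.5, 138 and 87.1 in si2, against 43.9, 30.5 and 30.1 in si1, and was higher by 1.46 (SE 0.25; limma adjusted p = 0.0180). The PDP2 call was lost without si1 3, si2 1 or si2 4 (limma adjusted p = 0.0507 to 0.0547), with no filter (0.0506), with the mitochondrial share in the fit (0.0653) and without replicate 1 of every group (0.0794). With the replicate block the calls of SLC25A13 and PDP2 were lost too. No gene of this list was called lower in si2 than in si1, and over all genes 3.71% were called higher and 3.02% lower.

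Of 41 other genes of fatty acid oxidation, 30 were tested in each comparison. With si1, 1 rose and 0 fell, against 0.789% and 0.932% of all genes. PPARGC1B, a coactivator of nuclear receptors that drive mitochondrial genes, had 79.0, 56.9 and 52.6 in si1, against 20.1, 32, 24.9 and 23.4 in siSCR. It rose by 1.29 on the log2 scale (SE 0.23; limma adjusted p = 0.0447), a call lost with the replicate block (limma adjusted p = 0.174) and without any single library except siSCR 1 (limma adjusted p = 0.0801 to 0.143). Without siSCR 1, SLC22A5 (limma adjusted p = 0.0419) and PPARA (0.0392) were also called higher in si1, beside 7.01% of all genes called higher and 6.52% lower. With si2, 0 rose and 1 fell, against 1.93% and 1.19% of all genes. ACSL4, which activates arachidonate and similar polyunsaturated acids, had 80.5, 97.9, 119 and 83.5 in si2, against 202, 173, 183 and 148 in siSCR. It fell by 0.89 (SE 0.18; limma adjusted p = 0.0282), and leaving out any single library other than si2 3 or siSCR 1 ended the call (limma adjusted p = 0.0573 to 0.100). The replicate block ended this ACSL4 call as well. Without siSCR 1, ACSL3 (limma adjusted p = 0.0425), ACOX3 (0.0477) and PPARA (0.00719) were called higher in si2, beside 7.74% of all genes called higher and 6.68% lower. PPARA and ACOX3 were named after their values were seen.

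Between the siRNAs, 1 of these genes was higher in si2 and 3 were lower, against 3.71% and 3.02% of all genes. ACSL3, an acyl-CoA synthetase of lipid droplets and the endoplasmic reticulum, had 762, 788, 639.6 and 728 in si2, against 414, 436 and 341 in si1, and was higher by 0.88 (SE 0.18; limma adjusted p = 0.0287). ACSL4 had 80.5, 97.9, 119 and 83.5 in si2, against 220.4, 254 and 284 in si1, and was lower, at -1.41 (SE 0.20; limma adjusted p = 0.0110). These synthetases thus differed in opposite directions between the siRNAs. PPARGC1B had 19.5, 14.4, 24.2 and 9.85 in si2, against 79.0, 56.9 and 52.6 in si1, and was lower, at -1.88 (SE 0.31; limma adjusted p = 0.0169). SLC22A5, the plasma membrane carnitine transporter, had 9.73, 12.8, 13.7 and 16.1 in si2, against 27.2, 43.0 and 21.0 in si1, and was lower, at -1.12 (SE 0.27; limma adjusted p = 0.0497). Of these calls, that of ACSL4 held with each single library left out, but not with the mitochondrial share in the fit (limma adjusted p = 0.0588) or without replicate 1 of every group (limma adjusted p = 0.0788). These settings also ended the calls of ACSL3, PPARGC1B and SLC22A5 (limma adjusted p = 0.0948 to 0.179). With the replicate block the calls of ACSL3, ACSL4, PPARGC1B and SLC22A5 were all lost. Calls of ACSL3 were lost without si1 1, si1 3, si2 1, si2 2 or si2 4 (limma adjusted p = 0.0541 to 0.0936). That of PPARGC1B was lost without si2 2 (limma adjusted p = 0.0544), and that of SLC22A5 without any library other than si1 3 (limma adjusted p = 0.0716 to 0.121). Among all alternatives, SLC22A5 was called in 3 of 17, ACSL3 in 9 of 18, PPARGC1B in 14 of 18 and ACSL4 in 15 of 18.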

How the data were processed

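RNA of 11 libraries (si1 n = 3, si2 n = 4, siSCR n = 4) was analysed, with groups taken from the labels. The submitters' processing notes name cutadapt, FastQC, STAR, HTSeq and DESeq2 and the build GRCh38, and per the labels' protocols counts from HTSeq were scaled by relative log expression (RLE) in DESeq2. Versions, settings and strandedness are not given in the sources used here. Each siRNA has 1 table that the authors deposited, with log2(normalized count + 1) per library on one log2 scale. Per the file headers it also holds a mean signal, the authors' fold change, and their p-value before and after adjustment, which are printed only as values of the authors' deposited table. For 100% of values, undoing the log gave whole reads within 0.01, whose sums are the depths; these limit the precision of low genes. The intervals given are limma's and rest on the spread between libraries.

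Genes that reached a normalized count of 10 in a number of libraries equal to the size of the smaller group were fitted with limma 3.58.1 (R 4.3.3) on the deposited log2 scale, per comparison, with Benjamini-Hochberg adjustment over all genes tested and calls under 0.05. The pseudocount of 1 understates changes of low genes. The code was tested on simulated data. Permutation tests of AKR1A1 were exact and two-sided, with the smaller tail doubled. Exon lengths, positions and overlaps came from GENCODE 29, promoters from RefSeq. Named genes were AKR1A1, members called or else the 4 with the smallest p per pathway and comparison, those highest per kilobase, those under the minimum, and called or top genes of the other lists. The members and lists were chosen with earlier results of these data known.

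Same-numbered si1 and siSCR libraries had correlations of 0.407, 0.106 and 0.141 between their deviations from the group means, over 10281 genes. Only the pair of replicate 1 stood apart. Pairs of unlike number reached 0.126 (si1 2 with siSCR 3) and 0.132 (si1 3 with siSCR 4). The numbers were still taken to pair si1 and siSCR libraries, and the fit with a replicate block is given where it changes a call. That pairing comes from the data and not from a stated batch. The alternatives tried were a rescaling by upper quartiles, no filter, a minimum of 50, limma-trend, voom on whole reads, a pseudocount of 0.5 or 5, a joint fit of the 11 libraries, the block, the mitochondrial share as a covariate, and libraries left out. ACACA of the other lists was not analysed here.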

Additional observations from a re-analysis of the deposited data

Results flagged for a closer look

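In siSCR, 5 member transcripts had 1 library far from the other controls. CS had 270.3 in siSCR 1, against 379 to 391 in the others, and CPT1A had 141 in siSCR 1, against 98.1 to 103. ACSM3 had 57.1 in siSCR 1, against 6.41 to 13.2. GOT1 had 389.8 in siSCR 3, against 328 to 337, and ETFB had 607 in siSCR 4, against 448 to 472. The mitochondrially encoded share of reads was 12.1% in siSCR 1, against 3.46% to 4.46%. These were 6 of 90 groups examined, 4 of them in siSCR 1; chance gives about 1 in 20 groups.

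The effects of the siRNAs differed from each other by the limma test of si2 against si1 for 7 genes of the pathways. Among the members, 0 of 21 cycle genes and 1 of 19 oxidation genes were called. Of 30 tested in each other list, 2 cycle genes were higher, and 1 oxidation gene was higher and 3 lower. Over all 10448 genes tested, 6.74% were called. Each of these pathway calls was lost under some alternative settings. The log2 difference was -1.93 for ACSM3, 1.29 for SLC25A13, 1.46 for PDP2, 0.88 for ACSL3, -1.41 for ACSL4, -1.88 for PPARGC1B and -1.12 for SLC22A5.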

How the results depend on the processing

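In si1, limma called 181 genes, against 5 with no filter, 567 with a minimum of 50, 712 with limma-trend, 582 with voom, 414 with a pseudocount of 5, 1141 with all 11 libraries in one fit, 864 without replicate 1 of every group and 0 with the replicate block. Its 0 cycle calls became 1 with a minimum of 50, 2 with limma-trend, 2 with voom and 3 in the fit of all libraries. Its 0 oxidation calls became 2, 3, 3 and 3 under these settings, and 1 each with a pseudocount of 5, the mitochondrial covariate and without replicate 1 of every group. In si2, 320 calls became 108 with no filter, 482 with limma-trend, 1343 with the covariate and 1179 without replicate 1 of every group. The cycle had 1 call with a minimum of 50, limma-trend, voom or the covariate, and oxidation 1 with the covariate and 2 without replicate 1 of every group. In si2 against si1, 704 calls became 230 with no filter, 1064 with limma-trend, 1172 with voom, 167 with the covariate and 19 without replicate 1 of every group. The cycle had 1 call with a minimum of 50, limma-trend or voom, and oxidation 3, 3 and 4, but 0 in the fit of all libraries and without replicate 1 of every group. In the comparisons of si2 the replicate numbers were not taken to pair the libraries (correlations -0.035 to 0.175 with siSCR and -0.00304 to 0.0994 with si1). The replicate block gave 175 calls against siSCR, and against si1 6 calls and 0 in oxidation. Against si1 it ended the calls of ACSM3 (limma adjusted p = 0.0913) and of SLC25A13, PDP2, ACSL3, ACSL4, PPARGC1B and SLC22A5 (0.109 to 0.158). Against siSCR it ended the calls of ACLY (0.0656) and ACSL4 (0.0637). With 1 library left out, calls ranged from 0 to 1399 genes, 0 to 1 cycle and 0 to 3 oxidation genes in si1, from 88 to 1496, 0 to 2 and 0 to 3 in si2, and from 120 to 803, 0 to 0 and 1 to 2 in si2 against si1; the highest counts in si1 and si2 came without siSCR 1. The AKR1A1 difference between the siRNAs, 0.01, was -0.018 with upper-quartile rescaling, -0.10 with voom, 0.34 without replicate 1 of every group and 1.27 with the mitochondrial covariate; with 1 library left out it ranged from -0.43 (without si1 replicate 2) to 0.45 (without si1 replicate 1), and was -0.09 without si2 replicate 1 and -0.02 without si2 replicate 3. Of single genes, 568 values kept direction and call, 56 gained a call, 77 lost one and 5 turned sign. With no filter, calls against siSCR ended for ACLY (limma adjusted p = 0.0839) and ACSL4 (0.0873) in si2 and for AKR1A1 (0.0871) and PPARGC1B (0.108) in si1; the covariate also ended that of PPARGC1B (0.0528). The cause of these changes was not tested. Upper-quartile rescaling moved the median of all genes in si1 from -0.03 to 0.02. Depth of 2108546 to 5939514 reads limits low genes such as PC and ACAA2, which were under the minimum in some comparisons.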
